A study of Mus musculus with 6 samples.

Results

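The clustered protocadherin genes of the mouse lie in 3 neighbouring groups on chromosome 18, named alpha (Pcdha), beta (Pcdhb) and gamma (Pcdhg). All protein-coding genes of the RefSeq GRCm38 table on that chromosome with a symbol starting Pcdha, Pcdhb or Pcdhg were selected by name, which gave 57 of the 21887 protein-coding genes on the chromosomes. They are 14 alpha, 22 beta and 21 gamma genes. The rule itself uses names and no measured value, although the family was picked with earlier results of these data known. Their chromatin was read from ATAC-seq, in which a transposase cuts and tags open DNA, in line A (also called C2), fibroblasts from mouse embryos that had been immortalised by c-myc. The study had 6 samples, 2 each of wild-type cells, of Ezh2 -/- cells, and of Ezh2 -/- cells given Ezh2 back from the retrovirus pMSCV-Ezh2, and 50000 whole cells were transposed per the labels. Ezh2 is the enzyme of Polycomb repressive complex 2 that places methyl groups on lysine 27 of histone H3, a mark of silenced genes. The values below come from 1 list of accessible intervals of the Ezh2 -/- cells, so they describe that genotype and compare it with no other. The part of Ezh2 that is deleted is not stated in the labels, so the list does not check the genotype. The labels name 1 cell line, so the cells are a single line without animals as replicates, and the list gives neither a value per replicate nor a read depth. No replicate error and no test could therefore be given, and every difference below is a description of this list.

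Clustered protocadherins are cadherin-like adhesion proteins that give neurons distinct surface identities: copies on neighbouring cell membranes bind when they carry the same isoforms. In the alpha and gamma clusters each gene has its own promoter and a large variable exon for the outer part of the protein, which is spliced to constant exons shared by the whole cluster and coding for the inner end. Beta genes consist of a variable exon alone and share no constant exons. In neurons most of the promoters are chosen at random in each cell, with CTCF, cohesin and distant enhancers bringing a promoter into contact, while DNA methylation and the silencing proteins Smchd1 and Setdb1 keep others off. The C-type genes (Pcdhac1, Pcdhac2, Pcdhgc3, Pcdhgc4 and Pcdhgc5) stand at the constant side of their clusters and are used more uniformly across cells.

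The gene table gives starts and ends but no exons, so of this arrangement it shows only which gene ends are shared. All 14 alpha genes ended within 1240 bp of each other, at 37187657 to 37188897 on chromosome 18 (GRCm38, the assembly behind mm10), while each began at a place of its own from 36930285 (Pcdha1) to 37143678 (Pcdhac2). The 21 gamma genes ended within 10 bp of each other, up to 37841873, and began from 37661775 (Pcdhga1) to 37819546 (Pcdhgc5). The 22 beta genes, from Pcdhb1 at 37264998 to the end of Pcdhb22 at 37521419, shared no end, and were 2.34 to 5.27 kb long. The alpha genes measured 43.99 to 257 kb in the table and the gamma genes 22.3 to 180.1 kb, because each runs from its own variable end to the shared constant end. The gene bodies of the alpha and gamma clusters thus lie over one another.

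Over the 3 clusters, taken with 1 kb at either side, the list held 4 intervals, each 1 row and 1 called region of its own, and each containing its own maximum. These 4 intervals lay over 35 of the 57 genes (61.4%) when a gene counted by its body, extended by 1 kb each way, against 53.7% of all protein-coding genes. By gene ends, counting an interval within 1 kb of either end, they reached 1 of the 57 (1.75%), Pcdhgc3, against 47.4% of all protein-coding genes. All 14 alpha genes rested on 1 interval, all 21 gamma genes on 3, and the beta cluster had 0 intervals. That is 8.75 genes for each interval, where the 11755 protein-coding genes called by their bodies had 16235 intervals behind them, or 1.38 intervals per gene. The share of clustered genes called by their bodies is therefore a count of 4 intervals over shared gene models and not of 35 separate accessible sites.

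**Figure D1:**
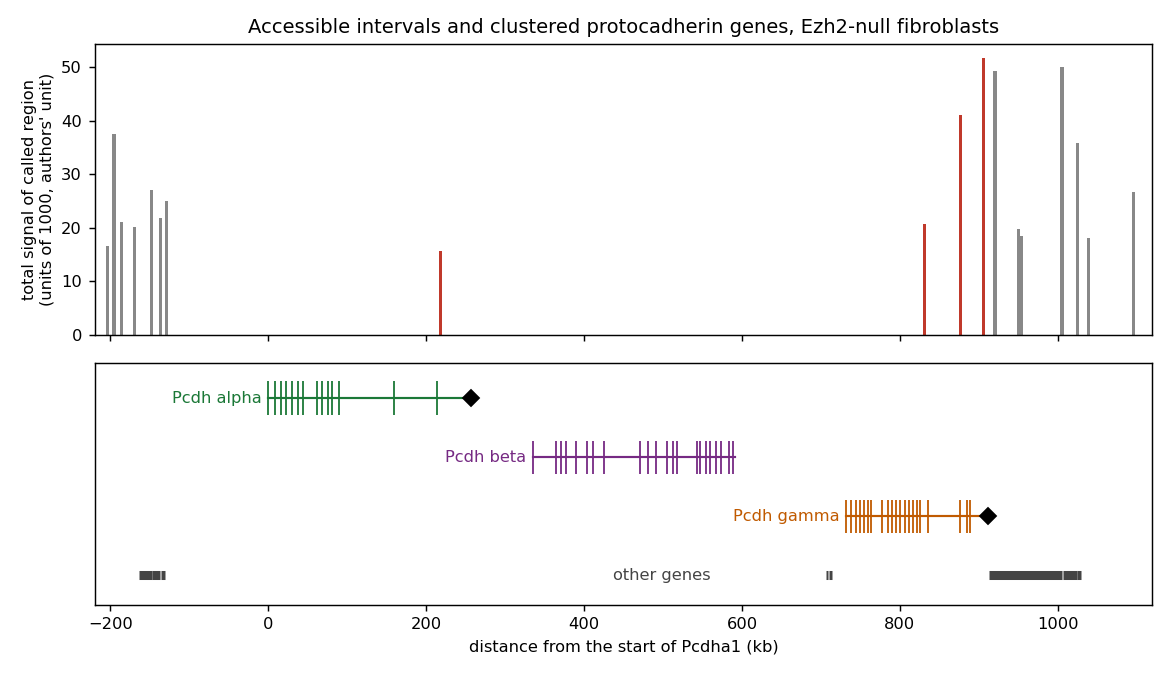
Top, total signal (in units of 1000, authors' unit) of each called region by its place, in kb from the start of Pcdha1; red bars lie over the clusters, grey bars outside them, and bars narrower than 4 kb are drawn 4 kb wide. Bottom, the variable (lower) end of every alpha, beta and gamma gene as a vertical line, the shared constant end as a black diamond, and other genes between and beside the clusters in dark grey. A single bar stands over alpha, none over beta, and 3 over gamma, from Pcdhgb8 to the constant part.

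No other interval of the list lay over as many genes. The interval nearest the gamma constant end overlapped 24 protein-coding gene bodies, that at Pcdhgc3 22, that at Pcdhgb8 20 and the alpha interval 17. These counts include 3 fusion gene models, Gm37013, Gm38666 and Gm38667, which begin at the alpha variable exons and end at the gamma constant end and are not members by name. Counting members alone gives 21, 19, 17 and 14. The 4 intervals held the 4 highest counts among 21759 intervals on the chromosomes, of which 88.4% overlapped 0 or 1 gene. The next highest count was 6, reached by 3 intervals, 2 of them in the Ugt1a cluster on chromosome 1, whose genes likewise share constant exons. The count follows from gene models that overlap and is not a measure of accessibility.

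**Figure D2:**
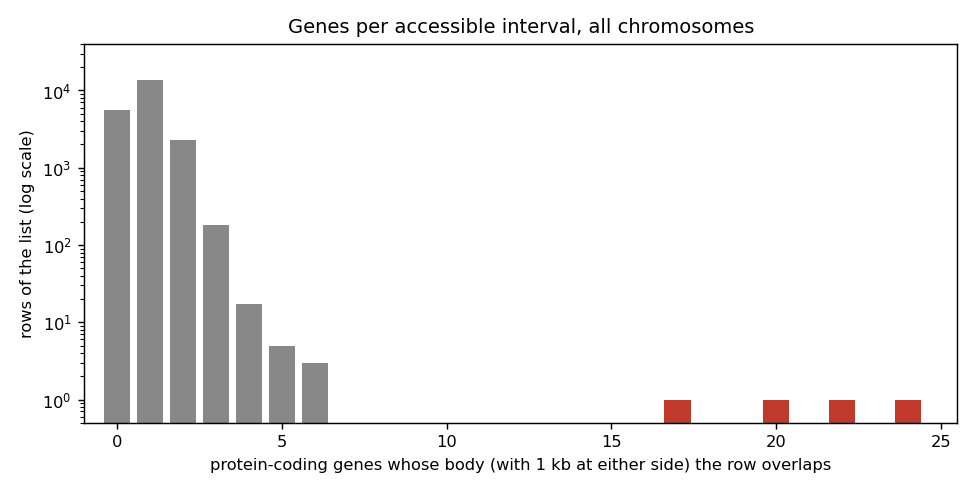
Number of intervals (rows of the list, log scale) by the number of protein-coding genes whose body, extended by 1 kb each way, each overlaps, over all chromosomes. The 4 red bars, at 17, 20, 22 and 24 genes, are the intervals over the protocadherin clusters; all other intervals stand at 6 or fewer.

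The alpha cluster, 259 kb long, had its interval at 37148144 to 37149776. It lay at no variable end, and past the allowance of 3 kb made here for the last variable exon, since the table gives no exons: its maximum stood 5.81 kb beyond the start of Pcdhac2, a C-type gene needed for the even spacing of serotonergic axons, and 38.2 kb before the shared constant end. Its nearest edge was 4.47 kb from the start of Pcdhac2 and 58.0 kb from that of Pcdhac1, the other C-type gene of the cluster. The 12 genes from Pcdha1 to Pcdha12 had their variable ends 128 to 171 kb from the nearest interval, Pcdha7 being the farthest. The stretch from 1 kb before Pcdha1 to 3 kb past the start of Pcdhac2, 217 kb, held 0 intervals, and the 43.2 kb from there to 1 kb past the constant end held the 1. An enhancer of the alpha promoters is known in this constant part of the cluster, and whether the interval coincides with it was not tested.

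The alpha interval was also among the lowest in the list by total signal. Its total signal, the area under its coverage in the authors' unit, was 15697, the lowest in the list being 15316, and it ranked 416 from the bottom of 19215 called regions (percentile 2.17). The peak height of its coverage, the maximum signal, was 27, equal to the median of all called regions. The interval was 1633 bp wide (percentile 16.6 of all rows), and an area also depends on width. Every one of the 14 alpha genes was called through this interval alone. Without it the count of called gene bodies fell to 21 of 57 (36.8%), all of them gamma genes.

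The beta cluster, 256 kb with 22 genes of a single exon each, held no interval within its span or within 1 kb of it. The variable (lower) ends of its genes stood 115 kb (Pcdhb1) to 298 kb (Pcdhb14) from the nearest interval, with a median of 254 kb, and Pcdhb22, the last, stood 243 kb away. All 22 genes were over 100 kb from an interval, against 24.6% of protein-coding genes measured from their lower end. Of the other protein-coding genes in the same range of lengths, 45.0% had an interval over the body and 44.9% within 1 kb of an end. One interval-free stretch holds the whole cluster, so the 22 distances follow the order of the genes and are not separate measurements. How reads matching several near-identical protocadherin genes were placed is not given, and whether it bears on this count was not tested.

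The gamma cluster, 180.1 kb long, had 3 intervals, 2 in its variable stretch (from 1 kb before Pcdhga1 to 3 kb past the start of Pcdhgc5, 162 kb) and 1 in the 20.3 kb from there to 1 kb past the constant end. The first began 99.4 kb past the start of Pcdhga1, so the part of the variable stretch before it held none. This first interval, at 37761161 to 37762155, was 995 bp wide and lay over the start of Pcdhgb8, which the table lists as a transcribed pseudogene and which is therefore not a member. Its maximum stood 107.5 bp before the listed start of Pcdhgb8, at 37761801. The nearest members were Pcdhga12, whose variable end lay 3.43 kb away, and Pcdhga11, 5.39 kb away. The second, at 37805672 to 37809637, was 3966 bp wide and covered the variable end of Pcdhgc3, the first C-type gene of the cluster. Its maximum stood 147 bp before the start of Pcdhgc3. Across the 9841 protein-coding genes with an interval that holds its maximum near an end, the median distance from maximum to gene end was 133 bp (quartiles 46.5 and 481 bp). The distances at Pcdhgb8 and Pcdhgc3 both lay between those quartiles. As both sides hold only genes with an interval at an end, closeness was in part fixed in advance.

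The third gamma interval, at 37834536 to 37837300 and 2765 bp wide, lay inside the constant part as defined above. Its maximum was 6.19 kb before the shared end and 16.1 kb past the start of Pcdhgc5, the last variable end, and its upper edge was 4.57 kb short of the constant end. It missed the 1 kb window at the constant end, and the wider window of 2500 bp missed it too, so none of the 21 genes was called through it by gene ends. The positions of the constant exons were not used here, so whether it covers one is not known. The other C-type genes had no interval at their variable ends: Pcdhgc4, which supports the survival of interneurons, stood 5.44 kb from the nearest interval and Pcdhgc5 9.91 kb. From Pcdhga1, 99.4 kb away, to Pcdhga11, 5.39 kb away, the variable ends of 17 A- and B-type genes came closer to the interval at Pcdhgb8 in their order along the chromosome. Within the bodies of those 17 genes lay all 3 intervals, in those of Pcdhga12 and Pcdhgc3 lay 2, and in those of Pcdhgc4 and Pcdhgc5 lay 1.

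**Figure D3:**
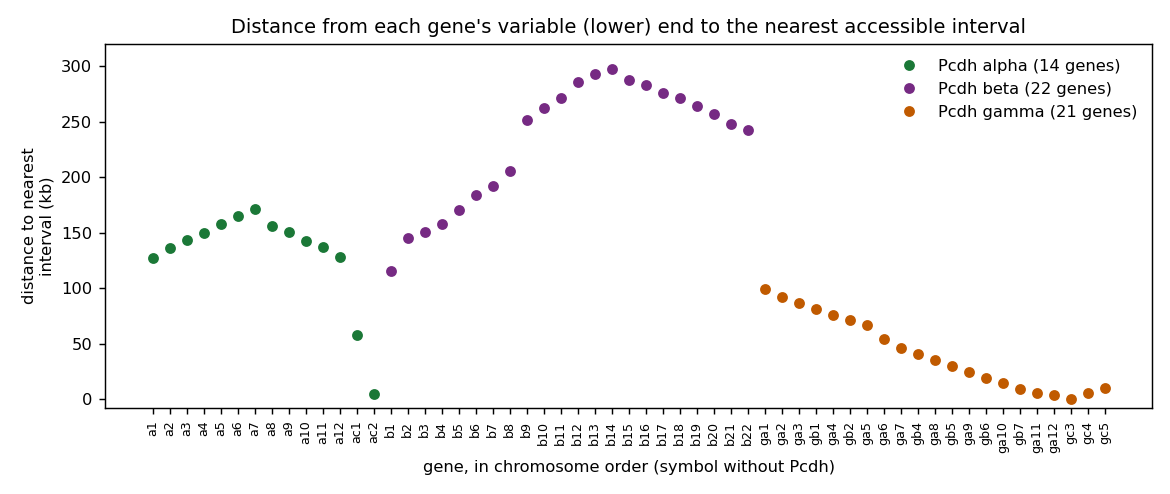
Distance in kb from the variable (lower) end of each of the 57 genes to the nearest accessible interval, with genes in chromosome order. Pcdhgc3 is at 0; Pcdhga12 and Pcdhac2 are the other genes under 5 kb, and every beta gene is above 100 kb.

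The 3 gamma intervals differed in signal and in width. Total signal was 20724 at Pcdhgb8 (percentile 25.9 of all called regions), 40987 at Pcdhgc3 (percentile 69.8) and 51728 in the constant part (percentile 80.3), around a median of 29082 over the list. Widths were 995, 3966 and 2765 bp in the same order, and a total also depends on width. Maximum signal was 33, 52 and 44 in that order (percentiles 64.6, 90.4 and 82.5), all above the median of 27. The interval in the constant part had the highest total and the one at the Pcdhgc3 start the highest maximum. Of the 4 intervals over the clusters, 2 lay above the median total signal and both were gamma. With no value per replicate, the order of these 4 has no error attached.

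**Figure D4:**
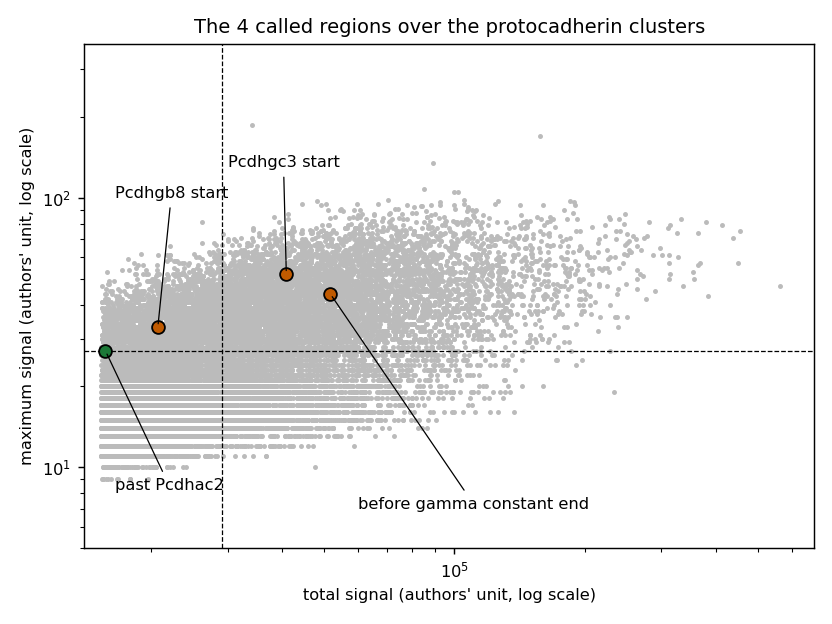
Total against maximum signal (both in the authors' unit, log scales) of every called region on the chromosomes in grey, with the 4 over the clusters marked, alpha in green and gamma in orange; dashed lines are the medians. The alpha region (15697, 27) sits at the lower edge of total signal, and the regions at Pcdhgc3 (40987, 52) and in the gamma constant part (51728, 44) lie above both medians.

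Most of the locus was a pair of interval-free stretches. The first ran 345 kb from the interval at Zmat2 to the alpha interval and held the variable ends of all 14 alpha genes. The second ran 611 kb from the alpha interval to the one at Pcdhgb8 and held the variable ends of all 22 beta genes and of 17 gamma genes, from Pcdhga1 to Pcdhga11. The median gap between neighbouring intervals was 21.9 kb over the chromosomes and 59.5 kb on chromosome 18, and these stretches were longer than 94.1% and 96.5% of all 21739 gaps. Among the 451 gaps of chromosome 18 they ranked 53 and 29, so longer ones were not rare there. From the nearer gene end, the median distance to an interval was 37.9 kb over the 57 members, against 1.99 kb over protein-coding genes. By cluster it was 37.9 kb for alpha, 252 kb for beta and 4.57 kb for gamma. For most alpha and gamma genes the nearer end was the shared constant end. The alpha and gamma medians, and that over all members, therefore mostly repeat the distance from that end to an interval. The genes are not separate measurements. By clusters, intervals numbered 0.384 per 100 kb over alpha, 0 over beta and 1.65 over gamma, where chromosome 18 had 0.516 and all chromosomes 0.805. Bases covered came to 0.627% of alpha, 0% of beta and 4.24% of gamma, against 1.3% of chromosome 18 and 2.31% of all chromosomes.

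The genes around the clusters were not sparse in intervals. In the 1 Mb before Pcdha1 lay 24 intervals and in the 1 Mb past the gamma end 17. Of the 37 protein-coding genes there, 25 had a gene-end interval (67.6%), through 22 distinct intervals, so some of these genes shared one. On the alpha side the nearest genes, the histidyl-tRNA synthetase genes Hars and Hars2 and the splicing factor gene Zmat2, each had one, and the last interval before the clusters, at Zmat2, ended 128 kb before Pcdha1. On the gamma side the formin gene Diaph1, the histone deacetylase gene Hdac3 and Rell2 each had one. That of Diaph1 lay at its end away from the clusters, with the same total signal as at Hdac3 (50075). The end of Diaph1 facing the gamma cluster had none. The first interval past the gamma constant end began 6.02 kb beyond it, inside Diaph1, and had 49358 as its total signal and, like the constant-part interval, 44 as its maximum. Between beta and gamma lie Slc25a2, a mitochondrial ornithine carrier gene, and Taf7, which encodes a subunit of the general transcription factor TFIID. Neither had an interval over its body, and their nearer ends stood 122 kb and 117 kb from one.

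Gene length bears on the body counts. Of the other protein-coding genes in the length range of the alpha and gamma members, 66.5% had an interval over the body. Within 1 kb of an end, 55.4% had one. These shares stand beside 35 of 35 and 1 of 35 among the members. Lengths were not matched within that range. Because members share their intervals, the 35 are not separate observations. At start sites of the RefSeq promoter table as used here, which holds no entry for chromosome 18 and so none of the members, 46.9% of 17492 protein-coding genes had an interval within 1 kb.

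Other families give scale to these counts, beside the 47.4% of all protein-coding genes with a gene-end interval and the 53.7% called by their bodies. In the Ugt1a cluster, 9 glucuronosyltransferase genes that also splice variable first exons to shared constant ones, 6 genes were called by their bodies through 3 intervals, and Ugt1a7c (total signal 15696) and Ugt1a6a (26161) had one at an end. There the intervals lay among the variable ends, and Ugt1a5, Ugt1a2 and Ugt1a1, nearest the constant end, had none. Of 12 non-clustered protocadherin genes, each standing alone with its own full coding sequence, 3 had a gene-end interval: Pcdh9 (38311), Pcdh19 (29903) and Pcdh18 (15697). Pcdh1, Pcdh10 and Pcdh11x were among the 9 with none over their bodies either. A gene-end interval stood at 5 of 20 cadherin genes with symbols starting Cdh (25%). They included Cdh24 (48089), the mesenchymal N-cadherin gene Cdh2 (41084), Cdh4 (37657) and Cdh22 (26766), and not Cdh1, Cdh10 or Cdh12. Of 56 keratin-associated protein genes, another tandem family of short genes, 0 had one.

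Genes that handle clustered protocadherins lie elsewhere in the genome, and 3 lists of them were counted in the same way. Of 12 genes for CTCF, cohesin and looping factors, 8 had a gene-end interval (66.7%), led by the cohesin regulators Pds5b (145393) and Pds5a (69526), the cohesin subunit Smc3 (77240) and Ctcf (46431). Nipbl, Rad21 and Stag1 had theirs inside the gene and not at an end. Of 14 genes for silencers and DNA methylation, 12 had one (85.7%), led by the corepressor gene Trim28 (101157), the histone methyltransferase gene Ehmt1 (100082), Wiz (92499) and Cbx3 (77424). The DNA methyltransferase genes Dnmt1 and Dnmt3a were the exceptions, each with 1 interval within the gene. Of 15 genes for binding partners and proteases 12 had one (80.0%), among them Pdcd10 (64712), the WAVE complex gene Abi1 (63172), the focal adhesion kinase gene Ptk2 (60963) and Wasf2 (51578). Abi2, the kinase gene Ptk2b and the receptor gene Ret had none at an end. These shares stood above the 47.4% of all protein-coding genes, and that of the clustered genes below it. Among intervals over the median total signal, 5 of the 12 CTCF, cohesin and looping genes (41.7%), 10 of the 14 silencer genes (71.4%) and 7 of the 15 partner and protease genes (46.7%) had one, against 32.7% of all genes.

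**Figure D5:**
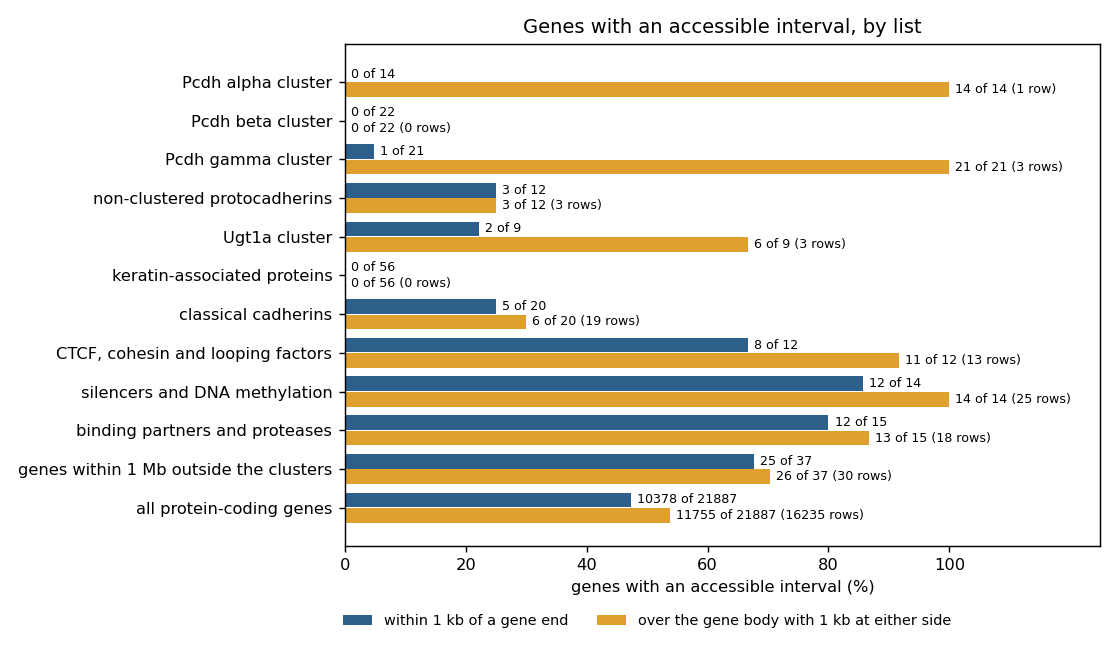
Share of genes (%) with an accessible interval within 1 kb of a gene end (blue) and over the body of the gene extended by 1 kb each way (yellow), by list, with counts and the number of distinct intervals (rows) behind the body count. The alpha and gamma clusters reach 100% by body with 1 and 3 intervals, and 0% and 4.76% by gene ends. The list labelled classical cadherins is that of 20 cadherin genes with symbols starting Cdh.

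As a check of the labelled cell type, 11 of 16 fibroblast marker genes had a gene-end interval (68.8%), with Col6a1 (144531), Col1a1 (108721), Col5a1 (105477) and Vim (85139) the highest, while Dcn, Fap and Lum had none; the share over all protein-coding genes was 47.4%. Of 15 marker genes of neurons, the cells in which clustered protocadherins are mainly used, 4 had one (26.7%): Rbfox3 (354291), Slc17a7 (35093), Gad1 (22153) and Map2 (21141). The total at Rbfox3 was above that of every fibroblast marker. Totals belong to the whole called region, which can be split over several rows. With intervals that hold their maximum, 11 of the 16 fibroblast and 3 of the 15 neuron markers had one, against 45.0% of all genes. Accessibility of a marker gene is not its expression.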

How the data were processed

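The authors deposited 1 list of accessible intervals for the Ezh2 -/- cells, with 21835 rows in 6 columns and no header. Bowtie2 2.2.9, deepTools, SEACR and build mm10 are named per the submitters' processing notes. Not given in the sources used here are the calling threshold, how the 2 replicates were combined and how reads matching several near-identical protocadherin genes were placed. By SEACR's column order, the fourth column is the total signal, a score in the authors' unit as deposited, and the fifth is the maximum signal, the height of coverage as deposited, with no stated normalization. Rows that repeat all values were treated as 1 called region, which gave 19215. The other 2 groups were not analysed here.

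Genes came from the RefSeq GRCm38 table, which lists 21887 protein-coding genes with starts and ends but no strand or exons. Intervals overlapped a window by at least 1 bp. The constant end was the end coordinate shared within 2 kb by a cluster's genes, and the variable end the other one. The variable stretch was taken to 3 kb past the last variable end. Distances leave out chromosome Y, where the list has no interval. Named genes were all those with an end interval, the first, last and C-type genes of each cluster, neighbours, and per list the 4 highest totals and the first 3 alphabetically without one. Pcdhgb8, the farthest members and the genes nearest an interval were added after values were seen, as were the comparisons by length, start site and left-out interval. Members and lists were chosen with earlier results of these data known. Calculations used Python 3.11.15, numpy 2.4.6, pandas 2.3.3 and matplotlib 3.10.9. The lookup was tested on a sample of the list's intervals, where 0 of 400 genes got another answer than from a simple scan. Of simulated intervals placed at known distances before a gene's lower end, 0 were called wrongly.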

Additional observations from a re-analysis of the deposited data

How the results depend on the processing

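The count of 1 member with a gene-end interval was the same with windows of 500 and 2500 bp, at the variable end alone, with an overlap of at least 200 bp, with intervals that hold their maximum and among those over the median total signal. It was 0 above the upper quartile, where 19.6% of all protein-coding genes had one. The 35 gene bodies became 21 above the median (36.8%, against 36.3% of all genes), 21 above the upper quartile (against 21.6%) and 21 without the interval of lowest total signal, the alpha one; other flanks, overlaps and the maximum rule gave 35. The alpha count was 0 of 14 above the median, where its interval is removed by construction. The 4 intervals became 2 above the median, 1 above the upper quartile, 5 with 10 kb at either side and 3 without the one at Pcdhgb8, and 4 under the other settings. Of 178 alternative values over these counts and all lists, 33 moved by over 1.5 times (6 of these counts, 27 of single clusters, lists and all genes), and the settings that raise the signal threshold were behind all but the left-out interval. No paired analysis was possible because the list carries no value per replicate, and for the same reason no replicate could be left out. Depth is unknown, so an interval-free stretch means no interval called at the authors' threshold, not closed chromatin.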

Other observations

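The 611 kb stretch without an interval between the alpha interval and Pcdhgb8 contained 24 whole protein-coding genes, the 22 beta genes with Slc25a2 and Taf7. It ranked 42 by that count among the 21739 gaps between neighbouring intervals, a rank shared with gaps on chromosomes 2 and 7. Of the 41 gaps that held more genes, 16 were led by olfactory receptor genes and 4 by vomeronasal receptor genes, and the other 21 by families such as defensin, keratin-associated protein, Pramel and kallikrein genes or by unnamed gene models. The leading family could be a minority of a gap's genes, as with 29 defensin genes of 67 on chromosome 8. The gap with the most, on chromosome 2, held 227 genes over 5518 kb, 222 of them olfactory receptor genes. Taf7, whose product is part of the general transcription machinery, is a single gene in this stretch. Its distance of 117 kb to the nearest interval compares with a median of 1.99 kb for the nearer end of protein-coding genes.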
